A study of Homo sapiens with 17 samples.

Results

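DNA synthesis needs a balanced supply of the 4 deoxynucleotides, and the 7 genes described here encode enzymes that make them: RRM1, RRM2, TYMS, TK1, DUT, DTYMK and DCK. They were followed in L363, an established human plasma cell line that the labels assign to multiple myeloma. Members were chosen by name, with earlier results of these data known. Each gene was represented by its singly annotated probe set with the highest mean over the 17 arrays. All 7 of 7 were measured, among 19775 genes represented, and 18 of the 54613 probe sets of the table were singly annotated to them. Cells were left untreated or were exposed for 48 h to the histone deacetylase inhibitor MS275 at 0.5 uM, to the mTOR inhibitor rapamycin at 1 nM or at 10 nM, or to 0.5 uM MS275 together with 1 nM or 10 nM rapamycin, called below the 1 nM and the 10 nM combination. Each group has 3 arrays except the 10 nM combination, which has 2, the submitters having removed 1 array at quality control. Nothing in the labels says whether replicates were separate cultures, so p-values measure the spread between these arrays, which may be technical. Values are log2 signals, so a difference of 1 is a doubling, and signals of different members were not set against each other.

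Ribonucleotide reductase removes the 2′ hydroxyl of ribonucleoside diphosphates and is the rate-limiting source of deoxynucleotides. RRM1 is its large subunit, which holds the active and regulatory sites, and RRM2 is the small subunit with the iron and tyrosyl radical centre, made in S phase and destroyed in mitosis. Thymidine nucleotides need further steps: DUT removes dUTP and leaves dUMP, TYMS methylates dUMP to dTMP with a folate donor, and DTYMK phosphorylates dTMP. TK1 and DCK salvage thymidine and deoxycytidine, and TK1 is a classical S phase enzyme. Many genes of this group are transcribed under E2F factors or the CCAAT-binding factor NF-Y as cells enter S phase. In RNA from a whole culture, fewer cells in S phase and less RNA in each cell cannot be told apart.

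The promoters of the 4 genes that were lower in both combinations are shown because their proximal sequences carry different motifs, and RRM1 and DUT are shown as members that carry the same letters but were not called. Sequences are from RefSeq on GRCh38.p14, where all 7 members matched a window, and each is the 170 bases before the listed start, 5′ to 3′ on the gene's strand. RRM2 and TK1 each have 2 listed starts and DUT has 4, and the most downstream was used. Capitals mark matches on either strand to CCAAT, to the E2F pattern TTTNNCGC, or to the cell-cycle homology region TTTGAA. RRM2 lies at chr2:10122569-10122738 on the plus strand, TYMS at chr18:657483-657652 on the plus strand, TK1 at chr17:78187053-78187222 on the minus strand, DTYMK at chr2:241686816-241686985 on the minus strand, DUT at chr15:48332027-48332196 on the plus strand and RRM1 at chr11:4094515-4094684 on the plus strand.
RRM2: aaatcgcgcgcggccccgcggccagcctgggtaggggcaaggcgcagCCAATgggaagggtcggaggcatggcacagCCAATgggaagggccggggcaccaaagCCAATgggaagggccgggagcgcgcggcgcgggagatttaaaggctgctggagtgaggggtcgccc
TK1: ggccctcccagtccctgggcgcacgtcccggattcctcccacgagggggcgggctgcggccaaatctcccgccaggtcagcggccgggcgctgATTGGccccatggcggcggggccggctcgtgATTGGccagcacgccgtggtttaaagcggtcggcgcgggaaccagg
DTYMK: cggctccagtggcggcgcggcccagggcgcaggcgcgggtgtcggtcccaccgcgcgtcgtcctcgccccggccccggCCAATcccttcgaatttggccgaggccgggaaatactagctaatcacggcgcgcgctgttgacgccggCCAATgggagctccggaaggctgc
TYMS: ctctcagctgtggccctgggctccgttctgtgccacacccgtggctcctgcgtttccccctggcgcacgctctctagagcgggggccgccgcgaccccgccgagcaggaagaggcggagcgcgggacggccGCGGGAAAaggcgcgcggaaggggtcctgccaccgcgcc
DUT: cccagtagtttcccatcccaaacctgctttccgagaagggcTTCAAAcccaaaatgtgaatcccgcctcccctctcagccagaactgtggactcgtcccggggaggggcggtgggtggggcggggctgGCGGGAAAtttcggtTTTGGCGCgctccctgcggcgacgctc
RRM1: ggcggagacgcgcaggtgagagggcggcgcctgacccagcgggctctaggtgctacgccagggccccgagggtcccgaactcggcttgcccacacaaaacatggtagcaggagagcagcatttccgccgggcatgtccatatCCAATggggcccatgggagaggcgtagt
RRM2 held 3 CCAAT matches, at positions -123, -93 and -66 from the start, all in the same orientation. TK1 held 2, at -77 and -46, and DTYMK held 2, at -92 and -24. TYMS held 1 E2F match, at -39, and no CCAAT. DUT held 2 E2F matches, at -42 and -27, a TTTGAA match at -129, and no CCAAT. RRM1, which was not called, held 1 CCAAT at -28, and DCK, also not called, held none of the 3 in these bases. Further upstream, outside the printed bases, TTTGAA matched at -214 in DUT and at -199 in RRM1. Over the 250 bases before the start of all 35116 RefSeq windows, CCAAT was present in 32.0%, the E2F pattern in 5.92% and TTTGAA in 13.3%. These matches describe letters and not binding.

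RRM2, the radical-bearing small subunit of the reductase, was the member with the widest range, 5.06 log2 units over the 17 arrays. Its 6 group means spanned 4.09 log2 units, which ranked 2 among all genes. Its log2 signals were 10.73, 11.23 and 12.00 in untreated cells, 9.92, 9.40 and 10.11 under MS275, and 9.89, 9.91 and 10.40 under 1 nM rapamycin. They were 9.11, 9.74 and 9.74 under 10 nM rapamycin, 7.26, 7.83 and 8.68 in the 1 nM combination, and 6.95 and 7.51 in the 10 nM combination. Every untreated array was above every treated one, and every combination array was below every single-drug array. MS275 overlapped both rapamycin groups, while every 10 nM rapamycin array was below every 1 nM rapamycin array. The 2 combination doses overlapped.

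Against untreated cells, RRM2 fell by 3.40 ± 0.37 (SE) in the 1 nM combination, a 10.5-fold decrease (adjusted p = 0.000358), and by 4.09 ± 0.42 in the 10 nM combination, a 17.1-fold decrease (adjusted p = 0.000177). The second was the lowest change of all 19775 genes, and the first was number 3 from the lowest. The single drugs gave -1.51 ± 0.37 under MS275 (adjusted p = 0.0633), -1.26 ± 0.37 under 1 nM rapamycin (adjusted p = 0.310) and -1.80 ± 0.37 under 10 nM rapamycin (adjusted p = 0.0550), none of which passed the threshold of 0.05. Arrays of untreated cells, MS275 and 1 nM rapamycin deviate together by replicate number, and with that number as a block RRM2 passed under MS275 (adjusted p = 0.00508) and under 1 nM rapamycin (adjusted p = 0.0433). Over the 26 alternative settings, adjusted p ran from 0.00185 to 0.491 for MS275 and from 0.000384 to 0.798 for 1 nM rapamycin.

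RRM2 was also lower in the combinations than with a single drug. Adding MS275 to 1 nM rapamycin gave a further change of -2.14 ± 0.37 (adjusted p = 0.0111) and adding MS275 to 10 nM rapamycin one of -2.30 ± 0.42 (adjusted p = 0.0276), the second being the lowest change of all genes in that comparison. Adding 10 nM rapamycin to MS275 gave -2.58 ± 0.42 (adjusted p = 0.0181). Adding 1 nM rapamycin to MS275 gave -1.88 ± 0.37 (adjusted p = 0.101), which passed with the replicate block (adjusted p = 0.00707, range over 26 alternatives 0.00707 to 0.623).

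RRM2 in both combinations passed with any single array of the 17 left out, with changes from -3.78 to -3.06 at 1 nM and from -4.39 to -3.75 at 10 nM. It did not pass when the fit held only the arrays of the compared groups (adjusted p = 0.0697 and 0.105), a setting in which 0 of all 19775 genes passed in either comparison and 1442 and 1572 had an unadjusted p under 0.05. Over the 26 alternatives the adjusted p of RRM2 ran from 3.01e-05 to 0.0697 at 1 nM and from 1.74e-05 to 0.105 at 10 nM. The further decreases were less firm. MS275 added to 1 nM rapamycin did not pass without 1 nM rapamycin replicate 3 or 1 nM combination replicate 1, and its change ran from -2.52 to -1.81 over the left-out arrays. MS275 added to 10 nM rapamycin did not pass without 10 nM rapamycin replicate 2 or 3 or either 10 nM combination array, with changes from -2.58 to -2.01. Adding 10 nM rapamycin to MS275 did not pass without MS275 replicate 1 or 3 or either 10 nM combination array, with changes from -2.86 to -2.30.

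The other RRM2 probe set, 201890_at, was at 7.51 on untreated replicate 1 and at 11.13 and 10.29 on the other untreated arrays. Its values were 9.10, 9.08 and 9.43 under MS275, 9.60, 10.02 and 10.03 under 1 nM rapamycin, and 9.06, 9.77 and 8.48 under 10 nM rapamycin. The combinations gave 6.05, 7.61 and 7.66 at 1 nM and 6.79 and 6.84 at 10 nM. The changes with a single drug were -0.44 under MS275, 0.24 under 1 nM rapamycin and -0.54 under 10 nM rapamycin, none of them called, and the 1 nM rapamycin value is opposite in sign to the -1.26 of the representing probe set. Through that untreated array the untreated and 1 nM combination groups overlapped, and the changes of -2.54 ± 0.69 and -2.83 ± 0.77 did not pass (adjusted p = 0.0850 and 0.0731). Without untreated replicate 1 and 1 nM combination replicate 1, 2 arrays of narrower signal range described below, 201890_at fell by 3.08 ± 0.36 (adjusted p = 0.00174) and by 3.90 ± 0.36 (adjusted p = 0.000425).

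**Figure D1:**
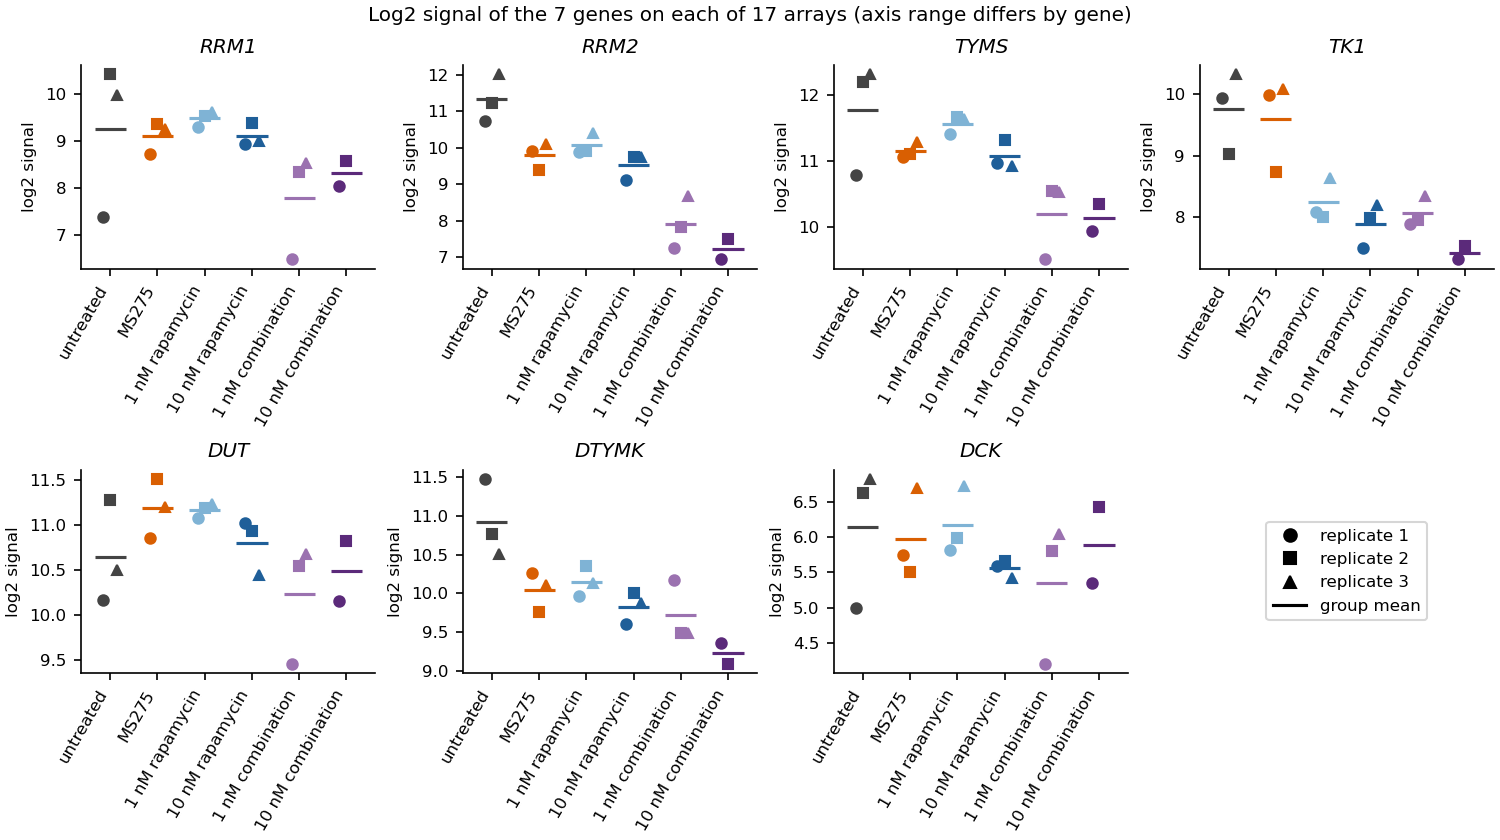
Log2 signal (vertical axis, own range for each gene) of the 7 genes on each of 17 arrays, by group along the horizontal axis, with a marker shape for each replicate number and a bar at the group mean. RRM2 runs from 10.73 to 12.00 in untreated cells down to 6.95 and 7.51 in the 10 nM combination, and TK1 splits into groups without and with rapamycin.

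RRM1, the large subunit, did not pass the test in any comparison by its representing probe set, and its untreated arrays were far apart. Its signals were 7.37, 10.42 and 9.99 in untreated cells, 8.72, 9.37 and 9.26 under MS275, and 9.30, 9.55 and 9.62 under 1 nM rapamycin. They were 8.95, 9.38 and 8.99 under 10 nM rapamycin, 6.47, 8.33 and 8.53 in the 1 nM combination, and 8.05 and 8.58 in the 10 nM combination. Every combination array was below every MS275 and every rapamycin array, and untreated replicate 1 was lower than all but 1 of the 17 arrays.

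Against untreated cells RRM1 differed by -1.48 ± 0.64 in the 1 nM combination (adjusted p = 0.339) and by -0.95 ± 0.72 in the 10 nM combination (adjusted p = 0.635). Without the 2 narrow arrays the changes were -1.78 ± 0.26 (adjusted p = 0.00362) and -1.89 ± 0.26 (adjusted p = 0.00172), and that under MS275 was -1.09 ± 0.24 (adjusted p = 0.0340). Over all 26 alternatives the adjusted p ran from 0.00362 to 0.929, from 0.00172 to 0.992 and from 0.0340 to 0.994. The other RRM1 probe set, 201476_s_at, differed by -2.25 ± 0.55 (adjusted p = 0.0507) and -2.45 ± 0.61 (adjusted p = 0.0501) in the combinations. It passed for MS275 averaged over rapamycin levels, at -1.25 ± 0.33 (adjusted p = 0.0354). For the representing probe set, leaving out untreated replicate 1 by itself gave -2.43 ± 0.47 (adjusted p = 0.0104) and -1.89 ± 0.51 (adjusted p = 0.0659), and leaving out 1 nM combination replicate 1 by itself gave -0.83 ± 0.63 (adjusted p = 0.670) in the 1 nM combination.

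TYMS, which makes dTMP and is the target of fluoropyrimidine drugs, had signals of 10.80, 12.20 and 12.31 in untreated cells. Signals were 11.06, 11.10 and 11.29 under MS275, 11.40, 11.66 and 11.63 under 1 nM rapamycin, and 10.96, 11.31 and 10.93 under 10 nM rapamycin. The combinations gave 9.52, 10.54 and 10.54 at 1 nM and 9.94 and 10.35 at 10 nM. All combination arrays lay below all other arrays, while each single drug overlapped the untreated arrays through untreated replicate 1.

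TYMS fell by 1.57 ± 0.35 in the 1 nM combination (adjusted p = 0.0255) and by 1.62 ± 0.39 in the 10 nM combination (adjusted p = 0.0359). The single drugs differed by -0.62, -0.20 and -0.70 and did not pass. The call at 1 nM was lost without untreated replicate 2 or 3 or 1 nM combination replicate 1, and that at 10 nM was lost without any of 8 arrays: untreated replicates 2 and 3, each 1 nM rapamycin array, 10 nM rapamycin replicate 1 and both 10 nM combination arrays. Over the arrays left out in turn, changes ran from -2.05 to -1.23 and from -2.11 to -1.35. Adding MS275 to 1 nM rapamycin gave -1.37 ± 0.35 (adjusted p = 0.0818), and 0.0140 with the replicate block, in a range over 26 alternatives of 0.00767 to 0.346. Of the other TYMS probe sets, 1554696_s_at was lower at -2.28 (adjusted p = 0.0340) and -2.76 (adjusted p = 0.0215) in the combinations. The dimmer 217684_at, with a mean signal of 4.93, was lower at -1.42 (adjusted p = 0.00916) in the 10 nM combination. It was not called in the 1 nM combination.

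DTYMK, the kinase that follows TYMS, had signals of 11.48, 10.77 and 10.50 in untreated cells, 10.26, 9.76 and 10.10 under MS275 and 9.96, 10.36 and 10.14 under 1 nM rapamycin. It had 9.60, 10.01 and 9.88 under 10 nM rapamycin, 10.17, 9.49 and 9.48 in the 1 nM combination, and 9.35 and 9.09 in the 10 nM combination. Every untreated array was above every treated array, and the treated groups overlapped except that the 10 nM combination lay below all others.

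DTYMK fell by 1.21 ± 0.26 in the 1 nM combination (adjusted p = 0.0199) and by 1.70 ± 0.29 in the 10 nM combination (adjusted p = 0.00481). The single drugs gave -0.88 ± 0.26, -0.77 ± 0.26 and -1.09 ± 0.26, with adjusted p = 0.130, 0.399 and 0.102. The 1 nM call was lost without 1 nM combination replicate 2 or 3, and the 10 nM call without 10 nM combination replicate 2, with changes from -1.43 to -0.92 and from -1.91 to -1.42 over the left-out arrays. Probe set 203270_at also passed in both, at -1.03 ± 0.22 and -1.36 ± 0.25. The 3 dimmer DTYMK probe sets did not pass, and 1565693_at, with a mean signal of 4.66, was at 0.10 and 0.012.

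TK1, the S phase thymidine salvage kinase, split the samples by rapamycin. Its signals were 9.94, 9.03 and 10.32 in untreated cells and 9.99, 8.73 and 10.09 under MS275. With rapamycin they were 8.09, 8.01 and 8.65 at 1 nM, 7.50, 7.99 and 8.20 at 10 nM, 7.89, 7.96 and 8.36 in the 1 nM combination, and 7.32 and 7.54 in the 10 nM combination. All arrays with rapamycin lay below all arrays without it, and MS275 arrays overlapped untreated ones.

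TK1 fell by 1.87 ± 0.37 under 10 nM rapamycin (adjusted p = 0.0453), by 1.70 ± 0.37 in the 1 nM combination (adjusted p = 0.0222) and by 2.33 ± 0.42 in the 10 nM combination (adjusted p = 0.00630). Under MS275 it differed by -0.16 ± 0.37 (adjusted p = 0.936, 95% interval -0.96 to 0.63). Under 1 nM rapamycin it differed by -1.52 ± 0.37 (adjusted p = 0.159), and passed with the replicate block (adjusted p = 0.0380, range over 26 alternatives 0.000482 to 0.615). The direct comparison of 10 nM rapamycin with MS275, added after these values were seen, gave -1.71 ± 0.37 (adjusted p = 0.0247), and that of 1 nM rapamycin with MS275 gave -1.36 ± 0.37 (adjusted p = 0.0866, 0.0155 with the block, range 0.00232 to 0.345). TK1 was the member that passed between 10 nM rapamycin and MS275, where 2.25% of all genes passed in either direction; none did between 1 nM rapamycin and MS275, where 2.14% passed.

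The single-drug call of TK1 sat at the threshold: it passed only when untreated replicate 2 or MS275 replicate 2 was the array left out, and the change ran from -2.23 to -1.59 over the 17 arrays. In the 1 nM combination it was lost without untreated replicate 1 or 3 or 1 nM combination replicate 1 or 2 (range -2.06 to -1.42). In the 10 nM combination it was lost without either of that group's arrays (range -2.70 to -2.06). The comparison of 10 nM rapamycin with MS275 was lost without MS275 replicate 1 or 3 or 10 nM rapamycin replicate 1 or 2 (range -2.14 to -1.46). The other TK1 probe set, 202338_at, gave -1.82 ± 0.25 under 10 nM rapamycin (adjusted p = 0.0170), -1.41 ± 0.25 in the 1 nM combination (adjusted p = 0.00863) and -2.22 ± 0.28 in the 10 nM combination (adjusted p = 0.000861), all past the threshold.

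DCK, which salvages deoxycytidine and activates cytarabine and gemcitabine, was not called in any comparison. Its signals were 4.99, 6.62 and 6.82 in untreated cells, 5.75, 5.50 and 6.69 under MS275, 5.81, 5.98 and 6.72 under 1 nM rapamycin and 5.59, 5.67 and 5.42 under 10 nM rapamycin. The combinations gave 4.21, 5.80 and 6.04 at 1 nM and 5.34 and 6.43 at 10 nM. All groups overlapped the untreated arrays, and the 95% interval of the 10 nM combination change, -0.26, ran from -1.54 to 1.02.

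DUT, which keeps uracil out of DNA, depended on the probe set. The one representing it, 208956_x_at, whose suffix marks probes that may match other transcripts, read 10.16, 11.27 and 10.50 in untreated cells, 9.46, 10.55 and 10.68 in the 1 nM combination and 10.15 and 10.82 in the 10 nM combination. These groups overlapped, and the changes of -0.42 ± 0.34 and -0.16 ± 0.38 did not pass. Over 26 alternatives each passed in 1, with lowest adjusted p of 0.0481 and 0.0466. The single drugs gave 0.54 under MS275, 0.52 under 1 nM rapamycin and 0.15 under 10 nM rapamycin, none of them called. Probe set 208955_at read 7.997, 8.32 and 9.36 in untreated cells, 6.70, 6.32 and 7.28 in the 1 nM combination and 5.81 and 6.75 in the 10 nM combination, with no overlap. It was lower at -1.80 ± 0.44 (adjusted p = 0.0488) and -2.28 ± 0.49 (adjusted p = 0.0238). Its changes with the single drugs, in the same order, were -0.67, -0.61 and -0.90, none of them called. The third, 209932_s_at, gave -0.63 ± 0.19 (adjusted p = 0.116) and -0.73 ± 0.21 (adjusted p = 0.0861).

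**Figure D2:**
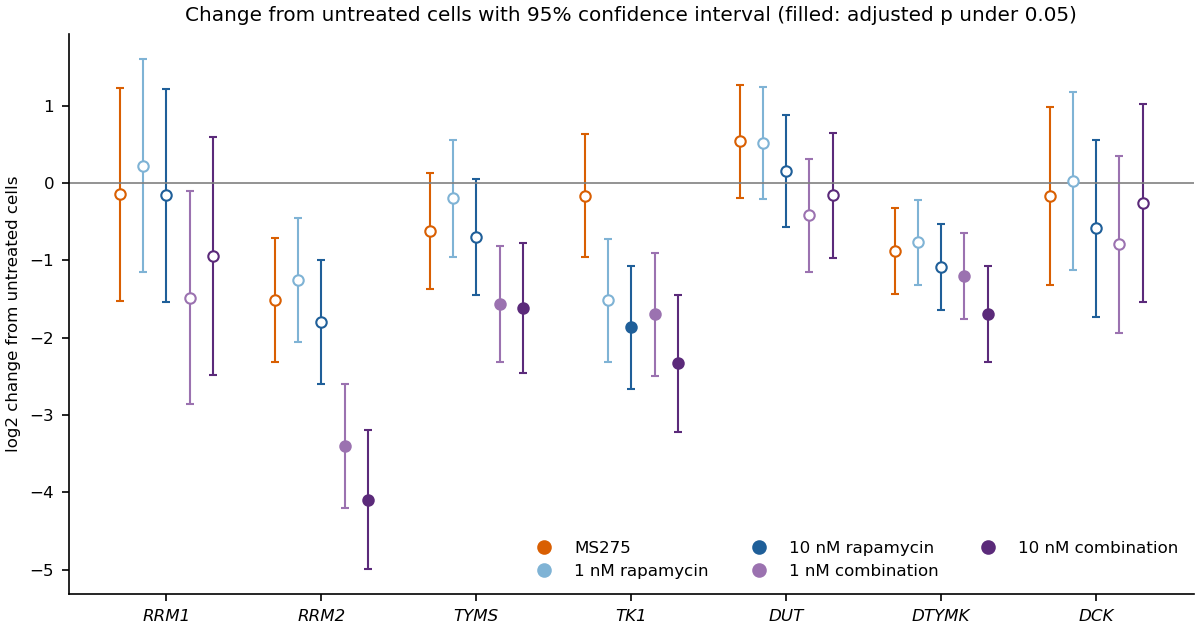
Log2 change from untreated cells (vertical axis) of each gene under each of 5 treatments, with its 95% confidence interval, filled where the adjusted p is under 0.05. RRM2 in the combinations, at -3.40 and -4.09, lies below every other point, and the intervals of RRM1 and DCK are the widest.

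Members were chosen with earlier results of these data known, so their counts beside shares of all genes are a description only. Counted over the 7 members, 0 were called higher in any comparison with untreated cells. Few genes were: of all 19775, 205 were higher under MS275, 4 under 1 nM rapamycin and 13 under 10 nM rapamycin. In the 1 nM and the 10 nM combination 221 and 209 were higher. Lower calls among the members numbered 0 under MS275, where 0.455% of all genes were lower, and 0 under 1 nM rapamycin, where 0.0809% were. Here 2 and 3 of the 7 had an unadjusted p under 0.05, against 2130 and 1592 of all 19775 genes. At 10 nM rapamycin 1 member was lower, TK1, against 0.369% of all genes. RRM2, TYMS, TK1 and DTYMK were lower in the 1 nM combination, 4 of 7 against 1.58% of all genes, and the same 4 were lower in the 10 nM combination, against 2.24%. The median change of the 7 was -0.17, -0.20, -0.70, -1.48 and -1.62 in these 5 comparisons, beside medians of all genes of -0.05, -0.12, -0.07, 0.02 and -0.08. Over the 6 groups at once, limma's moderated F test passed RRM2 (adjusted p = 0.000288), TK1 (0.00696) and DTYMK (0.0275), 3 of 7 against 3.83% of all genes, with TYMS at 0.0530. DTYMK was lost from that test without untreated replicate 2, MS275 replicate 3, 1 nM rapamycin replicate 3 or either 10 nM combination array. It was also lost with quantile normalization (3.73% of all genes passed) and with the mean of all probe sets of a gene (3.87%). TYMS passed in both of these fits, and DUT passed with the mean of probe sets. Of 26 alternatives in the 1 nM and the 10 nM combination, TYMS passed in 21 and 16, TK1 in 20 and 23 and DTYMK in 21 and 23, with none of them past the threshold when only the compared groups were fitted.

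Between a combination and its single drug the counts were smaller. Of the 7, 0 were called when 1 nM rapamycin was added to MS275, where 0.101% of all genes were lower, with 4 of the 7 and 878 genes at an unadjusted p under 0.05. RRM2 and TK1 were lower when 10 nM rapamycin was added to MS275, against 0.248% of genes, and the TK1 change of -2.17 ± 0.42 (adjusted p = 0.0476) passed in only 4 of the 17 fits that each left out 1 array, those without an untreated array or MS275 replicate 2 (changes from -2.61 to -1.93). RRM2 was the member called when MS275 was added to 1 nM rapamycin (0.293% of genes lower) and to 10 nM rapamycin (0.137%).

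No member was called between the 2 doses. Between 10 nM and 1 nM rapamycin limma called 0% of all genes and 0 members, with 24 genes and 0 members at an unadjusted p under 0.05. The median difference of the members was -0.38, beside 0.03 for all genes, and no dose effect on them was resolved. Between the 10 nM and 1 nM combinations it called 0% of all genes and 0 members, with 152 genes and 0 members at an unadjusted p under 0.05. RRM2 differed by -0.54 (95% interval -1.34 to 0.26) and -0.70 (-1.59 to 0.20) in these comparisons.

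Whether a combination differs from the sum of its single drugs was tested as an interaction. RRM2 summed to -2.77 at 1 nM and -3.31 at 10 nM, beside measured combination changes of -3.40 and -4.09, and the interaction was -0.63 ± 0.53 and -0.78 ± 0.56. Its 95% intervals ran from -1.76 to 0.50 and from -1.98 to 0.42, so neither a further decrease nor a sum was resolved. DTYMK summed to -1.65 and -1.97 beside -1.21 and -1.70. TK1 summed to -1.68 and -2.03 beside -1.70 and -2.33. DUT, by its representing probe set, had an interaction of -1.48 ± 0.48 at 1 nM, unadjusted p = 0.00800 and adjusted p = 0.682. That probe set differed by 0.54 under MS275 and 0.52 under 1 nM rapamycin, whereas 208955_at differed by -0.67 and -0.61. Limma called 0% of all genes at 1 nM and 0% at 10 nM, with 916 and 194 genes and 1 and 0 members at an unadjusted p under 0.05.

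Averaging each drug over the other uses all arrays and gave narrower errors. With MS275 averaged over the 3 rapamycin levels, RRM2 fell by 1.98 ± 0.22 (adjusted p = 7.83e-05), the lowest change of all genes, TYMS fell by 0.97 ± 0.21 (adjusted p = 0.00970) and DTYMK fell by 0.64 ± 0.16 (adjusted p = 0.0186). That is 3 of 7 against 3.59% of all genes. With rapamycin averaged over both doses and both MS275 states, RRM2 fell by 1.88 ± 0.23 (adjusted p = 0.000549), TK1 fell by 1.77 ± 0.23 (adjusted p = 0.000787) and DTYMK fell by 0.75 ± 0.16 (adjusted p = 0.0230), 3 of 7 against 1.94% of all genes. TK1 differed by -0.27 ± 0.22 for MS275 (adjusted p = 0.673) and TYMS by -0.71 ± 0.22 for rapamycin (adjusted p = 0.143). RRM2 and TYMS for MS275, and RRM2 and TK1 for rapamycin, passed in each of 25 alternatives, while among arrays left out singly the DTYMK calls were lost without 10 nM combination replicate 2, and for rapamycin also without MS275 replicate 1 or 3, with changes from -0.72 to -0.55 and from -0.86 to -0.61.

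**Figure D3:**
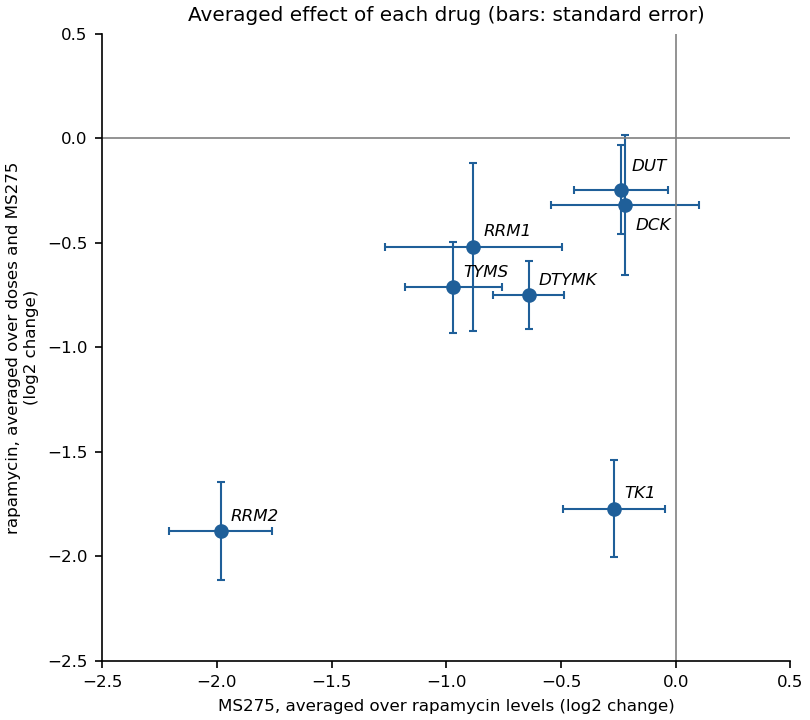
Averaged log2 change of each gene for MS275 (horizontal axis) and for rapamycin (vertical axis), bars showing the standard error. RRM2 lies at -1.98 and -1.88, low on both axes, and TK1 at -0.27 and -1.77, low on the rapamycin axis.

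The arrays differed in the range of their values. Untreated replicate 1 and 1 nM combination replicate 1 had a standard deviation of 2.14 and 2.15 over all probe sets, beside 2.27 to 2.37 on the other 15. Compared with the mean of the other replicates of their group, the 18 member probe sets were lower on both arrays in 9 cases, higher on both in 5 and of opposite sign in 4. RRM1 201477_s_at was shifted by -2.83 and -1.96, RRM2 201890_at by -3.21 and -1.58, DCK 203302_at by -1.73 and -1.71 and TYMS 202589_at by -1.46 and -1.02, whereas DTYMK 1553984_s_at was higher by 0.85 and 0.68. Both TK1 probe sets lay within 0.27 of their group.

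Without these 2 arrays, 3 members were lower under MS275 (RRM1, RRM2 and TYMS, against 1.23% of all genes) and 2 under 10 nM rapamycin (RRM2 and TYMS, against 0.657%). In the 1 nM combination 4 were lower (RRM1, RRM2, TYMS and DTYMK, against 1.96%), and in the 10 nM combination 5 were, those and TK1, against 3.18%. TK1 was not called under 10 nM rapamycin (-1.78, adjusted p = 0.104) or in the 1 nM combination (-1.52, adjusted p = 0.126) in that fit, in ranges over 26 alternatives of 0.000421 to 0.507 and 0.00323 to 0.191. With all 17 arrays, 8 of the 18 probe sets were lower in the 1 nM combination, against 1.27% of all singly annotated probe sets, and 9 of 18 in the 10 nM combination, against 1.80%.

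**Figure D4:**
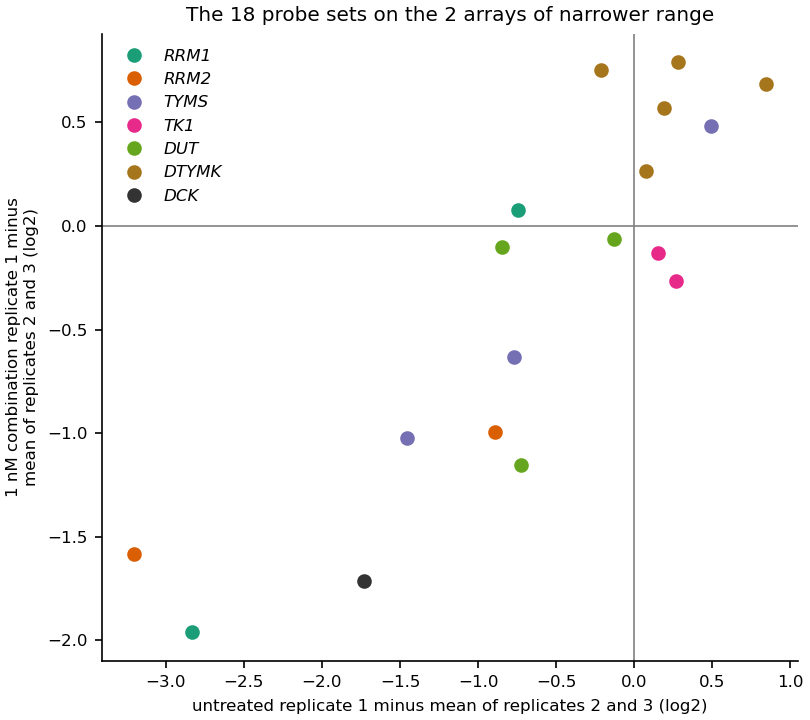
Difference of untreated replicate 1 (horizontal axis) and of 1 nM combination replicate 1 (vertical axis) from the mean of the other replicates of their group, in log2 units, for the 18 probe sets coloured by gene. RRM1 201477_s_at, RRM2 201890_at, DCK and TYMS 202589_at are more than 1 lower on both, and 4 of 5 DTYMK probe sets are higher on both.

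**Figure D5:**
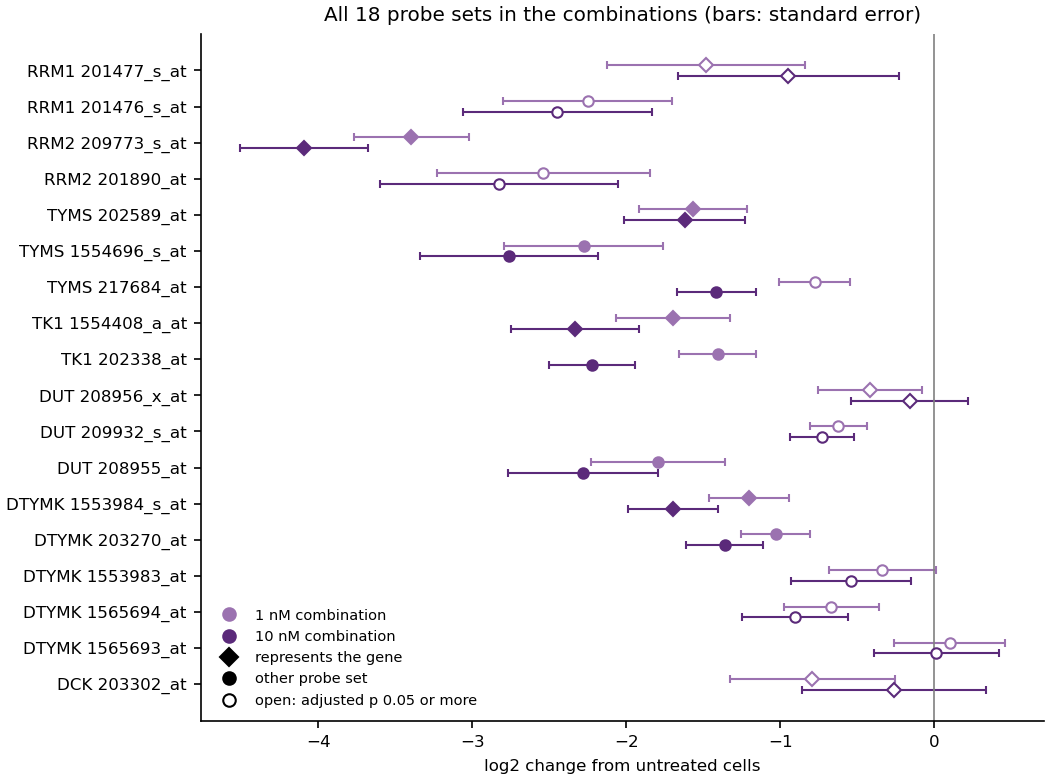
Log2 change from untreated cells (horizontal axis) of all 18 probe sets in both combinations, with standard errors, diamonds for those that represent a gene and filled symbols where the adjusted p is under 0.05. Of the 18, 17 lie below 0 in each combination, and the exception is DTYMK 1565693_at.

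The wider pathway was described from lists chosen with earlier results of these data known. Reductase partners, the alternative small subunit RRM2B with thioredoxin and glutaredoxin proteins, had 0 of 5 called in any comparison with untreated cells by limma. With MS275 averaged over rapamycin levels 1 of the 5 was lower, where 3.59% of all genes were. RRM2B, a p53 target, differed by 1.40 ± 0.45 under MS275 (adjusted p = 0.173) and by 1.05 and 1.02 in the combinations, opposite in sign to RRM2. SAMHD1, which destroys deoxynucleoside triphosphates, differed by 0.62 ± 0.20 under MS275 (adjusted p = 0.175) and rose by 0.44 ± 0.12 with MS275 averaged over rapamycin levels (adjusted p = 0.0354). It was among the 7 of 8 pool clearance genes measured, of which 0 were called against untreated cells. With rapamycin averaged over doses and MS275 states 1 of these 7 was lower, where 1.94% of all genes were.

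In the 1 nM and the 10 nM combination 1.58% and 2.24% of all genes were lower. Salvage and nucleotide kinase genes had 1 of 13 measured lower in each combination: ADA, adenosine deaminase, fell by 1.22 and 1.33. In the folate cycle, which feeds TYMS, 2 of 8 were lower in each combination. These were SLC19A1, the reduced folate carrier, at -1.45 and -1.57, and SHMT2, the mitochondrial serine hydroxymethyltransferase, at -1.27 and -1.34. Ribonucleotide pyrimidine synthesis had 0 of 6 lower at 1 nM and 2 of 6 at 10 nM, CAD at -1.01 and DHODH at -1.32. Under MS275 alone, where 0.455% of all genes were lower, each of these lists had 1 gene lower. Under either rapamycin dose alone they had 0.

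Regulators of E2F-driven transcription had 4 of 17 lower in each combination, where 1.58% and 2.24% of all genes were lower. Of the 17, 4 were also lower under 10 nM rapamycin (0.369% of all genes), 2 under MS275 (0.455%) and 1 under 1 nM rapamycin (0.0809%). The 4 of the combinations were MYBL2 at -2.64 and -3.11, E2F2 at -2.56 and -3.23, FOXM1 at -2.28 and -2.77 and CCNF, the cyclin that targets RRM2 protein for destruction, at -1.14 and -1.47. E2F1 differed by -0.96 and -0.69 and was not called. The S phase reference list had 9 of 18 lower in the 1 nM combination and 8 of 18 in the 10 nM combination. Among them were MCM4 at -2.31 and -3.15, CDC45 at -2.40 and -2.81 and CDC6 at -2.56 and -2.99. Of the 18, 3 were also lower under MS275, 1 under 1 nM rapamycin and 2 under 10 nM rapamycin. The median changes of this list in the combinations, -1.59 and -1.44, stood beside -1.48 and -1.62 for the 7 members. The part of cell cycle distribution in these results was not tested.

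Likeness over the 17 arrays is a description, since the arrays share treatments and the narrow arrays. The genes most like RRM2 were TUBA1B, a tubulin (Pearson r = 0.969), CDCA3 (0.966), GINS2, a helicase subunit (0.966), CDC6, a replication licensing factor (0.959) and CDC25A, a cell cycle phosphatase (0.957). Those most like RRM1 were CCNA2 (0.973), PCLAF (0.962) and TIPIN (0.961), and those most like TYMS were E2F7 (0.968), MCM6 (0.957) and FEN1 (0.956). TK1 was most like ACOT7 (0.932), JMJD6 (0.931) and BIRC5 (0.929). DTYMK was most like TONSL (0.9499), KIF22 (0.933) and TICRR (0.929), DUT like ERLIN2 (0.929), H2AZ1 (0.884) and INTS2 (0.882), and DCK like CENPQ (0.979), KIF2A (0.944) and BTG3 (0.937). Between the probe sets of a member, r was 0.973 for TK1, 0.829 for RRM2 and 0.491 for RRM1, and from 0.362 to 0.670 for DUT against its representing probe set. Against their representing probe sets, r was 0.796 and 0.484 for TYMS and from 0.090 to 0.888 for DTYMK.

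The cell type markers were read as a description, since signals of different probe sets also depend on the probes. All 8 plasma cell markers, SDC1 and IRF4 among them, were above the median signal of all genes, 6.07. The same held for 0 of 5 T cell, 0 of 4 myeloid, 2 of 4 B cell and 1 of 6 epithelial and fibroblast markers. With 2 or 3 arrays a group the median 95% interval was ± 0.54 for groups of 3 and ± 0.60 for the 10 nM combination. The signal over background is unknown, as the values carry no detection calls.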

How the data were processed

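RNA was profiled on 17 oligonucleotide arrays, per the labels. The deposited log2 signals per probe set were made by the authors with affy and RMA, per the submitters' processing notes. The labels do not state their versions or options. RMA is meant to subtract background, equalise array distributions and summarise probes, so a shift shared by all genes would be removed. The deposited distributions were not equal. The 2 narrow arrays had median log2 signals of 5.35 and 5.36, beside 5.09 to 5.20 on the other 15. Of 54613 probe sets, 41091 carried 1 gene symbol, 1801 several and 11721 none, and 41037 matched RefSeq by gene identifier. The 19775 genes were fitted with limma 3.58.1 in R 4.3.3 (lmFit, contrasts.fit, eBayes), all 6 groups in 1 fit without covariates, Benjamini-Hochberg adjusted over all genes, with calls at an adjusted p under 0.05. The scripts were tested on simulated data. Members and lists were chosen with earlier results of these data known. Named are all members, some of the called genes of the lists (at most 4 of a list), RRM2B, SAMHD1, E2F1 and E2F2. The 5 genes most like RRM2 and 3 most like each other member are also named. Other called genes of the lists were counted but not named. Whether replicate numbers in the labels pair arrays was judged by same-numbered arrays deviating together. This held in 7 of 10 pairs of groups with 3 shared numbers (each correlation from 0.29 to 0.85). These were untreated, MS275, 1 nM rapamycin and 1 nM combination arrays with each other, and 1 nM with 10 nM rapamycin. The replicate block nevertheless covered all 17 arrays, including groups that did not deviate together. Correlations fell to -0.34 between MS275 and 10 nM rapamycin, and to -0.74 between 1 nM rapamycin and the 10 nM combination. Alternatives changed the normalization, centring, filter, probe set, array weights, variance prior, arrays in the fit, replicate block and arrays left out. Direct comparisons of rapamycin with MS275, and other probe sets without the 2 narrow arrays, were added after seeing the data.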

Additional observations from a re-analysis of the deposited data

How the results depend on the processing

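Of the alternatives, the replicate block (pairing by number) called 1 member under MS275 (1.26% of all genes lower in that fit), 2 under 1 nM rapamycin (0.455%), 2 under 10 nM rapamycin (0.920%), 2 for 1 nM rapamycin added to MS275 (0.207%), 2 for MS275 added to 1 nM rapamycin (0.885%) and 1 for 1 nM rapamycin against MS275 (2.99%). It called TYMS for rapamycin averaged (adjusted p = 0.0328, 3.05% of genes lower) and ended no member call. Array weights called 2 under MS275 (3.70% of genes lower), 4 under 1 nM rapamycin (9.52%), 5 under 10 nM rapamycin (6.84%), 2 for MS275 added to 1 nM rapamycin (1.27%), 5 for rapamycin averaged (5.74%), 1 for 1 nM rapamycin against MS275 (7.39%) and 5 over the 6 groups (15.5% of genes). Without the 2 narrow arrays there were 3 under MS275 (1.23%), 2 under 10 nM rapamycin (0.657%), 2 for MS275 added to either rapamycin dose (0.399% and 0.506%), 5 for rapamycin averaged (2.49%) and 5 over the 6 groups (5.48%). Quantile normalization called 1 under MS275 (0.571%) and 2 under 10 nM rapamycin (0.460%), and the filter on dim genes 2 under 10 nM rapamycin (0.678%). Centred arrays called 0 under 10 nM rapamycin (0.202%), 1 for 10 nM rapamycin added to MS275 (0.217%) and 0 for MS275 added to 10 nM rapamycin (0.126%). The mean of probe sets called 1 for 10 nM rapamycin added to MS275 (0.172%), 0 for MS275 added to 10 nM rapamycin (0.101%) and 1 for 1 nM rapamycin against MS275 (1.80%). The trended prior called 0 under 10 nM rapamycin (0.157%) and 1 for 10 nM rapamycin added to MS275 (0.126%). With the compared groups alone, 0 were called in both combinations, 10 nM rapamycin, 10 nM rapamycin added to MS275, MS275 added to either dose and 10 nM rapamycin against MS275. In that setting 0 of all genes passed in either combination. Leaving out each array gave 0 to 1 under MS275 (0.0910% to 0.789% of genes lower), 0 to 1 under 1 nM (0% to 0.233%) and 0 to 1 under 10 nM rapamycin (0.0101% to 0.415%), 2 to 4 in the 1 nM (0.9001% to 2.52%) and 1 to 4 in the 10 nM combination (0.632% to 2.52%). It gave 0 to 2 for 10 nM rapamycin added to MS275 (0.0152% to 0.374%), 0 to 2 for MS275 added to 1 nM (0.0860% to 0.718%) and 0 to 1 to 10 nM rapamycin (0.0101% to 0.298%). It gave 2 to 4 for averaged MS275 (2.44% to 5.10%) and for averaged rapamycin (1.14% to 2.07%), 0 to 1 for 1 nM (0.845% to 2.27%) and 10 nM rapamycin (0.733% to 2.27%) against MS275 and 2 to 5 over the 6 groups (2.48% to 4.72% of genes). DTYMK 1565693_at turned sign at 0.10 and 0.012 in the combinations and 0.11 for rapamycin averaged, and without the narrow arrays at 0.075 for the 10 nM combination and 0.10 for rapamycin averaged. The cause was not tested. Of the other values of single members, 3070 kept their direction and side of the threshold, 159 changed sign but were not past it in either fit, 74 newly passed and 129 no longer passed. Precision is limited by 2 or 3 arrays a group, and signal over background is unknown.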
